A study of Homo sapiens with 12 samples.

Results

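The genes described here are a module of the unfolded protein response and the integrated stress response, 40 symbols in all. Members were chosen by exact gene symbol in the probe table, and 38 of the 40 were found there, out of 19775 genes with a probe set of their own. CARS and WARS, the cysteine and tryptophan tRNA synthetases, stand in that table as CARS1 and WARS1 and are given apart. All 38 members passed the filter on dim probe sets, which kept 14649 genes, so every member found was tested. By role they fall into 18 genes of the ATF4 arm, 4 sensors and transcription factors of the endoplasmic reticulum (ER), 13 ER chaperones and 3 genes of ER-associated degradation.

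Expression was measured on an Affymetrix array in A549, an established human lung adenocarcinoma line. After loading with the dye Hoechst (5 µg/ml, 90 min), flow sorting separated the side population (SP), cells that export the dye, from all remaining cells (non-SP). The 4 groups were untreated non-SP, untreated SP, anti-EpCAM non-SP and anti-EpCAM SP, each with 3 biological replicates, 12 arrays in all. Treated cultures had been kept for 48 h with 100 µg/ml of a monoclonal antibody to EpCAM, an epithelial adhesion molecule. The labels write anti-mouse EpCAM without stating host or target species, and they name no control antibody for the untreated groups. They mention reserpine, which blocks dye export, as present or absent in the staining without assigning it to arrays. All groups are the same single line in culture.

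Cells that accumulate unfolded protein in the ER respond through the sensors EIF2AK3 (PERK), ERN1 (IRE1) and ATF6. EIF2AK3 and other kinases phosphorylate eIF2, which slows translation in general while ATF4 mRNA is translated more, and ATF4 then switches on genes of amino acid supply and the transcription factor DDIT3 (CHOP). ERN1 splices XBP1 mRNA, and spliced XBP1 and cleaved ATF6 drive ER chaperones and degradation genes. Much of this control acts on proteins and splicing, which these arrays do not report.

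Both branches act through short promoter elements, and the clearest examples among the members are shown to make the division between the ATF4 arm and the chaperones visible. RefSeq promoters (GRCh38.p14, from 250 bases before to 50 after the start, 300 bases) were given for 36 members, counting CARS1 and WARS1. NUPR1, PSPH, SHMT2 and PDIA3 had no entry. All elements were searched on both strands. The C/EBP-ATF response element TGATGNAA was found in 4 of 17 ATF4 arm promoters (ASNS, CARS1, CHAC1 and SLC3A2), in 0 of 12 chaperone promoters and in HERPUD1. It occurs in 3.67% of all 27305 promoters. The ER stress response element, CCAAT and CCACG with 9 bases between them, was found in 5 of 12 chaperone promoters (HSPA5, HSP90B1, CALR, CANX and CRELD2), in XBP1 and in 0 of 17 ATF4 arm promoters, against 0.0806% of all promoters. Its second form, ATTGG and CCACG with 1 base between them, was found in HYOU1, SDF2L1 and HERPUD1, 3 of 36, against 0.0549%. The unfolded protein response element TGACGTGG was found in HYOU1 alone, 1 of 36, against 0.795%. Only the first listed start of a gene was searched for these counts; other listed starts add CEBPG, PDIA6 and CARS1, each to a single element. The lists hold textbook targets of these elements, so the counts describe the members and are no test. In the sequences, written 5′ to 3′ on the gene's strand, capitals mark the matched element or its reverse complement.
ASNS (chr7:97872459-97872486, minus strand): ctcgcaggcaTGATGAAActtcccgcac
CHAC1 (chr15:40953252-40953279, plus strand): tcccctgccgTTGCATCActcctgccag
HSPA5 (chr9:125241381-125241419, minus strand): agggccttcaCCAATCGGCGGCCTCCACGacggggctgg
CALR (chr19:12938374-12938412, plus strand): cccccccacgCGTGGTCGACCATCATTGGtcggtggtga
CRELD2 (chr22:49918544-49918582, plus strand): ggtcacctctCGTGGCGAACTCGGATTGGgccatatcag
HSP90B1 (chr12:103930206-103930349, plus strand): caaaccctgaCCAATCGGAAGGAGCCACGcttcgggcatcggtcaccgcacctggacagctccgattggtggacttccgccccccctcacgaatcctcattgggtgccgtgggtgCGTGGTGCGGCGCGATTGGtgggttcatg
XBP1 (chr22:28800593-28800631, minus strand): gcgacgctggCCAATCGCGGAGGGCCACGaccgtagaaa
SDF2L1 (chr22:21642104-21642134, plus strand): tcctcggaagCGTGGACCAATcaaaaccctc
HYOU1 (chr11:119057264-119057403, minus strand): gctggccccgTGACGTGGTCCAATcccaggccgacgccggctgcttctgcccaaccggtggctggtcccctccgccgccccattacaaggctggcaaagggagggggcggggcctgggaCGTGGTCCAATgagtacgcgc
HERPUD1 (chr16:56931956-56932045, plus strand): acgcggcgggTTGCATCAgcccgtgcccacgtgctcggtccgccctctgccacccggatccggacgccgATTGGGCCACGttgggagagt
ASNS and CHAC1 carry the ATF4-type element in opposite orientation. HERPUD1 carries both an ATF4-type and an ER stress element, and was the only member with both. HYOU1 holds 2 copies of the second ER stress element, the upstream copy overlapping the unfolded protein response element, which is why the capitals there run together.

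The markers fixed for the cell type fitted the labelled line: the array means of 6 epithelial markers lay between 11.8 and 12.7 (log2), all 6 past the filter, against 4.99 to 5.90 for 4 leukocyte, 4.72 to 5.50 for 6 endothelial and 5.18 to 6.68 for 6 fibroblast markers. Of these, 2, 2 and 4 passed the filter, and the fibroblast markers differed between SP and non-SP by a mean of -0.15. The arrays resembled each other in 6 pairs, each made of the SP and the non-SP array that share a treatment and a replicate number. Array medians ran from 5.58 to 6.24, and those of a pair lay close together. For that reason SP was compared with non-SP within the pairs on the deposited values, while the antibody comparisons used all 12 arrays after quantile normalization. The ratio of 3′ to 5′ probes of the control transcript ACTB, a sign of RNA integrity, differed between SP and non-SP by 1.86 in anti-EpCAM pair 1 and -2.09 in anti-EpCAM pair 3, and by -0.36 to 0.27 in the other 4 pairs. Its part in the results was not tested.

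The first question was whether the stress response differed between side population and other cells. Over both treatments 0 of 38 members passed limma's test at an adjusted p under 0.05, where 362 of 14649 genes did (2.47%, with 1.02% higher and 1.45% lower in SP). At an unadjusted p under 0.05 there were 7 members, 18.4% against 16.2% of all genes. Higher in SP at that level were CEBPB, TRIB3, PPP1R15A, SLC3A2 and ERN1, 5 of 38 (13.2% against 8.64%). Lower were VLDLR and HYOU1, 2 of 38 (5.26% against 7.59%). Both shares lie near the background. SP was higher in all 6 pairs for TRIB3, MTHFD2 and ERN1 (7.89% against 6.03% of all genes) and lower in all 6 for VLDLR, HYOU1 and MANF (7.89% against 4.68%). The estimate was above 0 for 27 of 38 members, with a median of 0.033, where 52.4% of all genes were above 0 with a median of 0.0056. In bulk samples, fewer cells of a type and less RNA per cell cannot be told apart.

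The estimated differences were small as well as uncalled. The 95% interval of the difference, not adjusted over genes, lay within 0.5 on the log2 scale (1.41-fold) for all 38 members and within 0.25 (1.19-fold) for 28 of them. When the 12 arrays were instead treated as independent, 0 members passed and 0 had an unadjusted p under 0.05, where 0% and 1.5% of all genes did.

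**Figure D1:**
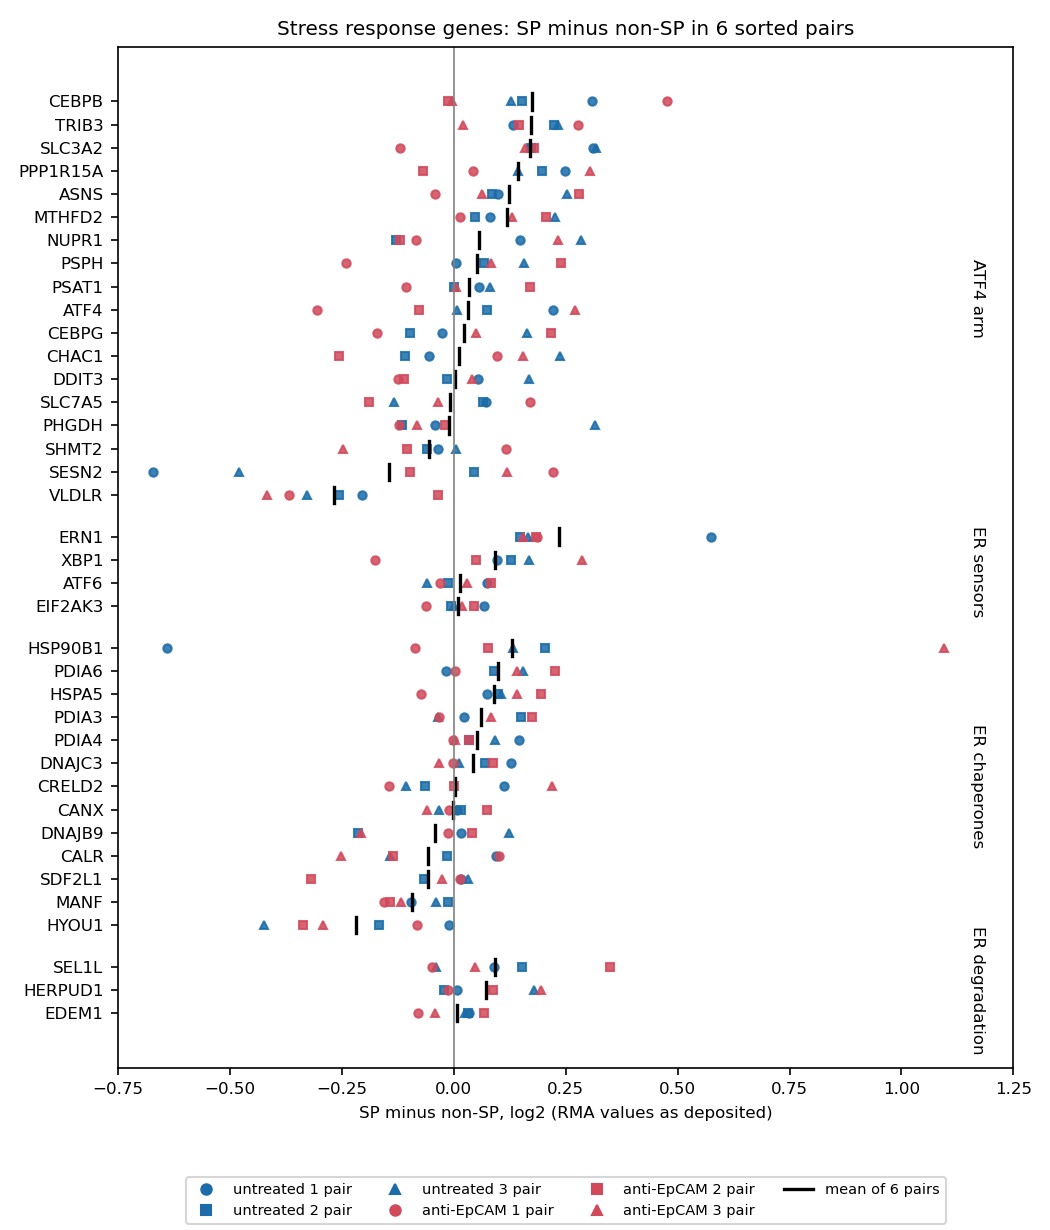
SP minus non-SP (log2, deposited values) for each of the 38 members, ordered by role and mean; points are the 6 pairs, blue for untreated and red for anti-EpCAM, and the black mark is their mean. Most members scatter on both sides of 0, while TRIB3, MTHFD2 and ERN1 lie wholly above it and VLDLR, HYOU1 and MANF wholly below.

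In the ATF4 arm the regulators at the top of the pathway were nearly level between the fractions. ATF4 mRNA stood at 12.52, 12.55 and 12.88 in untreated non-SP and 12.74, 12.62 and 12.89 in untreated SP for replicates 1, 2 and 3. With antibody it stood at 12.72, 12.94 and 12.68 in non-SP against 12.41, 12.86 and 12.95 in SP. The ranges overlapped, and the pair differences had both signs, 4 of 6 above 0. SP minus non-SP was 0.031 ± 0.074 (moderated SE, 6 pairs, 95% interval -0.13 to 0.20, adjusted p 0.881). Left without anti-EpCAM pair 3, the estimate was -0.046.

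DDIT3, the pro-apoptotic transcription factor CHOP, read 9.56, 9.45 and 10.04 in untreated non-SP and 9.61, 9.44 and 10.21 in untreated SP. The antibody groups read 9.56, 9.50 and 9.90 in non-SP against 9.44, 9.39 and 9.94 in SP. Replicate 3 was the highest in each of the 4 groups, and the fractions overlapped throughout. The difference was 0.0019 ± 0.053 (95% interval -0.12 to 0.12; adjusted p 0.991), positive in 3 of 6 pairs. Its sign turned with the normalization.

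TRIB3, a pseudokinase induced by ATF4 and DDIT3, was higher in SP in every pair. Its levels were 11.33, 10.96 and 11.28 in untreated non-SP and 11.46, 11.18 and 11.51 in untreated SP. With antibody they were 11.06, 11.22 and 11.36 in non-SP against 11.34, 11.37 and 11.38 in SP. The anti-EpCAM pair 3 difference was close to 0, and the group ranges overlapped although each pair had the same sign. The estimate was 0.17 ± 0.054, or 1.13-fold, and did not pass (adjusted p 0.146). A second TRIB3 probe set gave 0.14, with 4 of 6 pairs higher.

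VLDLR, a lipoprotein receptor induced through ATF4, lay the other way and came nearest to a call. It read 8.33, 8.09 and 8.46 in untreated non-SP against 8.13, 7.83 and 8.13 in untreated SP, and with antibody 7.98, 8.46 and 8.49 in non-SP against 7.61, 8.43 and 8.07 in SP. SP was lower in all 6 pairs, by amounts from a few hundredths in anti-EpCAM pair 2 to more than 0.4 in pair 3. The estimate was -0.27 ± 0.062 (1.20-fold lower; 95% interval -0.41 to -0.13) with an adjusted p of 0.0531. Under a stricter filter on dim probe sets the adjusted p was 0.0433, the single setting at which a member passed; over all settings tried it ran from 0.0433 to 1.00. Without anti-EpCAM pairs 1 and 3, whose ACTB ratios differed most, the estimate was -0.15 (adjusted p 0.232).

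SLC3A2, the heavy chain shared by amino acid exchangers, had pair differences of 0.31, 0.17 and 0.32 in untreated pairs and -0.12, 0.18 and 0.16 in antibody pairs. Its levels were 10.71, 10.98 and 11.67 in untreated non-SP, 11.02, 11.15 and 11.99 in untreated SP, 11.05, 11.70 and 11.48 in treated non-SP and 10.93, 11.88 and 11.64 in treated SP. Only anti-EpCAM pair 1 had SP below non-SP. The estimate was 0.17 ± 0.059 (adjusted p 0.184).

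PPP1R15A (GADD34), which recruits the phosphatase that resets eIF2, read 8.21, 8.62 and 9.69 in untreated non-SP and 8.46, 8.82 and 9.83 in untreated SP. The treated values were 8.54, 9.56 and 9.85 in non-SP against 8.58, 9.49 and 10.15 in SP. Levels differed far more from pair to pair than within a pair, and SP was higher in 5 of 6. The estimate was 0.14 ± 0.060 (adjusted p 0.267), and a second probe set gave 0.14 with 5 of 6 pairs higher. Leaving out anti-EpCAM pair 3 gave 0.091, and leaving out pair 1 as well gave 0.063.

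ASNS, asparagine synthetase, read 11.59, 11.34 and 11.62 in untreated non-SP and 11.69, 11.43 and 11.88 in untreated SP. With antibody it read 11.44, 11.59 and 11.35 in non-SP against 11.39, 11.86 and 11.42 in SP. SP was higher in 5 of 6 pairs, with overlapping ranges, and the estimate was 0.12 ± 0.059 (adjusted p 0.339), or 0.078 without anti-EpCAM pair 2 and 0.21 when pairs 1 and 3 were left out instead.

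SESN2, a sestrin that restrains mTORC1, had the widest pair differences of the arm. It read 8.64, 8.31 and 8.52 in untreated non-SP and 7.97, 8.35 and 8.04 in untreated SP, and with antibody 7.87, 8.39 and 8.23 in non-SP against 8.09, 8.29 and 8.35 in SP. SP was clearly below non-SP in untreated pairs 1 and 3, and in no antibody pair by as much. The estimate was -0.37 ± 0.12 in untreated and 0.081 ± 0.12 in treated cells, and the interaction of 0.45 had an unadjusted p of 0.0270 and an adjusted p of 1.000. Another SESN2 probe set had the opposite sign over both treatments.

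MTHFD2 and CEBPB fall outside the rule for named genes and were chosen after their values were seen. MTHFD2, the mitochondrial folate enzyme, differed by 0.081, 0.048 and 0.23 in untreated pairs and 0.013, 0.21 and 0.13 in antibody pairs, with an estimate of 0.12 ± 0.054 (adjusted p 0.317). CEBPB, a partner of ATF4, differed by 0.31, 0.15 and 0.13 and 0.48, -0.013 and -0.0045, so its estimate of 0.17 ± 0.072 (adjusted p 0.264) came mainly from untreated pair 1 and anti-EpCAM pair 1. The serine synthesis genes PHGDH (-0.011), PSAT1 (0.034) and PSPH (0.052) were spread around 0, as was SHMT2 (-0.055). Another kept probe set of PSAT1, PSPH and SHMT2 gave 0.45, 0.33 and 0.15 (SD over pairs 0.88, 0.65 and 0.17). Each of these was higher in SP in 5 of 6 pairs. A further probe set gave 0.064 for PSPH and -0.014 for SHMT2. The remaining members, CEBPG, NUPR1, CHAC1 and SLC7A5, lay between -0.0080 and 0.055, with adjusted p from 0.753 to 0.968. CARS1 (0.041 ± 0.054) and WARS1 (0.072 ± 0.055) were of similar size, positive in 3 and 5 of 6 pairs.

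**Figure D2:**
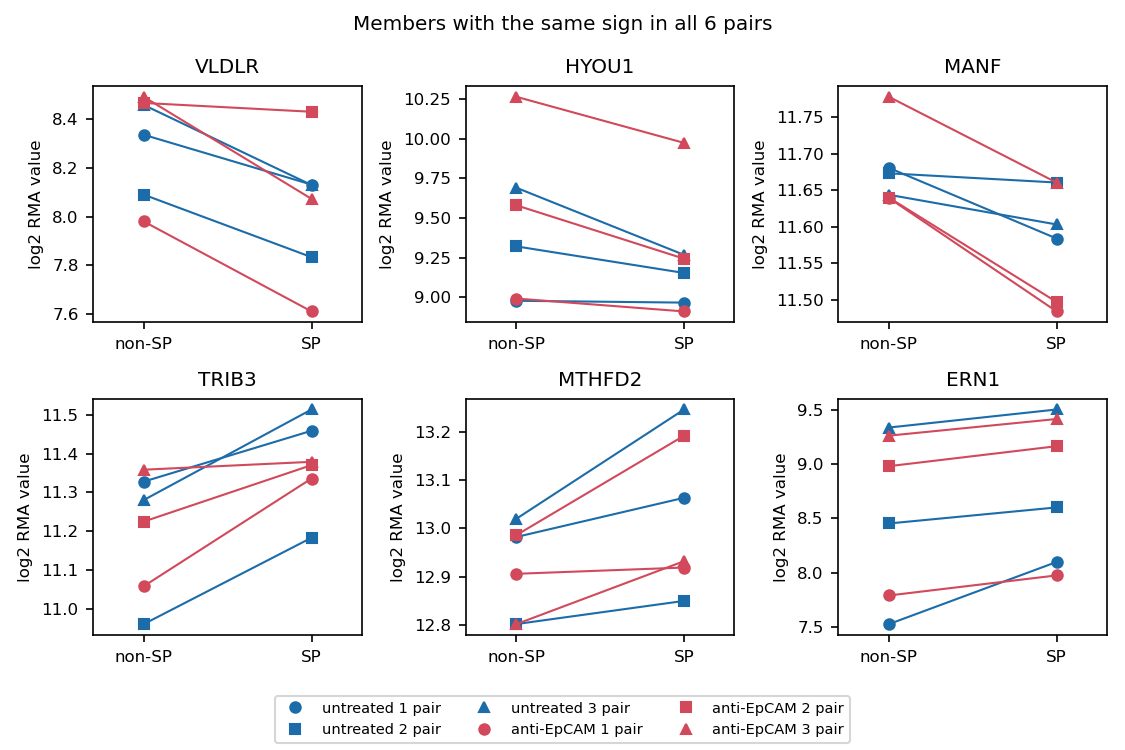
Deposited log2 level in non-SP and SP, joined within each of the 6 pairs, for the 6 members with the same sign in every pair. The lines for TRIB3, MTHFD2 and ERN1 all slope up and those for VLDLR, HYOU1 and MANF all slope down, while the pairs themselves start at different levels.

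Among the sensors, ERN1 was the member with the largest positive difference. This ER kinase and endonuclease read 7.52, 8.45 and 9.34 in untreated non-SP and 8.10, 8.60 and 9.51 in untreated SP. With antibody it read 7.79, 8.98 and 9.26 in non-SP against 7.97, 9.17 and 9.42 in SP. SP was higher in all 6 pairs, by 0.57, 0.15 and 0.17 without and 0.19, 0.18 and 0.15 with antibody. Untreated pair 1 stands far above the other 5, which lie within 0.15 to 0.19. The estimate of 0.24 ± 0.065 (1.18-fold; 95% interval 0.092 to 0.38) did not pass (adjusted p 0.0981), and a second probe set gave 0.26 with 6 of 6 pairs higher.

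XBP1, the substrate of ERN1, read 8.96, 9.44 and 10.999 in untreated non-SP and 9.05, 9.57 and 11.17 in untreated SP. With antibody it read 9.14, 10.82 and 10.66 in non-SP against 8.96, 10.87 and 10.94 in SP. Within a pair the fractions lay close together, and the quantile-normalized pair means spanned 1.81. SP minus non-SP was 0.092 ± 0.064 (adjusted p 0.524), and leaving out anti-EpCAM pair 3 or 1 gave 0.034 or 0.15.

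ATF6 read 8.98, 9.35 and 9.62 in untreated non-SP, 9.06, 9.34 and 9.56 in untreated SP, 9.15, 9.60 and 9.56 in treated non-SP and 9.12, 9.69 and 9.59 in treated SP, a difference of 0.014 ± 0.051 (adjusted p 0.925). EIF2AK3 read 9.91, 9.96 and 10.24 in untreated non-SP, 9.98, 9.95 and 10.24 in untreated SP, 9.89, 10.17 and 10.07 in treated non-SP and 9.83, 10.21 and 10.08 in treated SP, a difference of 0.010 ± 0.050 (adjusted p 0.947). ATF6 had 3 of 6 pairs above 0 and 3 below, and EIF2AK3 had 3 above, 2 below and 1 at 0. Other kept ATF6 probe sets gave 0.054, 0.17 and -0.18 (SD over pairs 0.039, 0.19 and 0.31), with 6, 5 and 2 of 6 pairs higher in SP.

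The ER chaperones centred on 0, with 7 estimates above and 6 below it. HSPA5 (BiP), the ER Hsp70 that holds the sensors inactive, read 12.68, 12.58 and 13.07 in untreated non-SP and 12.75, 12.68 and 13.18 in untreated SP. With antibody it read 12.64, 13.09 and 12.81 in non-SP against 12.57, 13.28 and 12.95 in SP. SP was higher in 5 of 6 pairs by little, and the ranges overlapped. The estimate was 0.090 ± 0.054 (95% interval -0.030 to 0.21, adjusted p 0.457). Another HSPA5 probe set lay near 0, at -0.00094 (SD over pairs 0.16), with 4 of 6 pairs higher in SP. The mean of its probe sets gave 0.045, and leaving out anti-EpCAM pairs 1 and 3 gave 0.14.

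HYOU1, an Hsp70-type nucleotide exchange factor of HSPA5, was lower in SP in every pair. It read 8.98, 9.32 and 9.69 in untreated non-SP and 8.97, 9.15 and 9.27 in untreated SP, and with antibody 8.99, 9.58 and 10.26 in non-SP against 8.91, 9.24 and 9.97 in SP. The gap was near 0 in untreated pair 1 and widest in untreated pair 3, and the group ranges overlapped. The estimate was -0.22 ± 0.066 (1.16-fold lower; 95% interval -0.36 to -0.073; adjusted p 0.128).

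MANF, a secreted ER stress protein, read 11.68, 11.67 and 11.64 in untreated non-SP and 11.58, 11.66 and 11.60 in untreated SP. Treated cells read 11.64, 11.64 and 11.78 in non-SP against 11.48, 11.50 and 11.66 in SP. All 6 pairs were lower in SP, by at most 0.16, and the estimate was -0.094 ± 0.049 (adjusted p 0.379).

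PDIA6, a protein disulfide isomerase, went the other way in 5 of 6 pairs. It read 12.81, 12.53 and 13.01 in untreated non-SP, 12.79, 12.62 and 13.16 in untreated SP, 12.64, 12.99 and 12.73 in treated non-SP and 12.64, 13.22 and 12.87 in treated SP, with an estimate of 0.10 ± 0.054 (adjusted p 0.408), or 0.15 without anti-EpCAM pairs 1 and 3.

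HSP90B1 (GRP94), the ER Hsp90, was the least precise member. It read 10.98, 9.97 and 10.23 in untreated non-SP and 10.34, 10.17 and 10.36 in untreated SP, and with antibody 10.53, 10.21 and 8.15 in non-SP against 10.44, 10.29 and 9.25 in SP. Pair differences were -0.64, 0.20 and 0.13 without and -0.088, 0.076 and 1.10 with antibody, so untreated pair 1 and anti-EpCAM pair 3 lay far out on opposite sides. The estimate was 0.13 ± 0.15 (95% interval -0.21 to 0.46). Both of its own probe sets carry the suffix Affymetrix gives to probes that can match other transcripts, and the other had the opposite sign. Anti-EpCAM pair 3 is also the pair whose ACTB ratio differed by -2.09, and the part of this was not tested.

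The other 8 chaperones and cofactors (CALR, CANX, PDIA3, PDIA4, DNAJB9, DNAJC3, SDF2L1 and CRELD2) had estimates between -0.059 and 0.060. CANX, the lectin chaperone calnexin, had a difference of -0.0012 ± 0.050 and CRELD2 of 0.0026 ± 0.062. These values rest on the probe set of highest mean. Other kept CANX probe sets gave 0.18, 0.21 and -0.0096 (SD over pairs 0.32, 0.39 and 0.11), with 5, 5 and 3 of 6 pairs higher in SP. Those of CALR gave -0.16 and 0.16 (SD 0.29 and 0.19).

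In ER-associated degradation, HERPUD1, a ubiquitin-like ER protein, read 11.29, 11.09 and 11.76 in untreated non-SP and 11.30, 11.07 and 11.94 in untreated SP. With antibody it read 11.24, 11.71 and 11.37 in non-SP against 11.23, 11.80 and 11.57 in SP, and the difference was 0.072 ± 0.055 (adjusted p 0.567). It was 0.0097 with the mean of its probe sets, 0.041 without untreated pair 3 and 0.046 without anti-EpCAM pair 3. SEL1L, the adaptor of the HRD1 ubiquitin ligase, read 10.26, 10.35 and 10.89 in untreated non-SP, 10.35, 10.50 and 10.85 in untreated SP, 10.32, 10.69 and 10.68 in treated non-SP and 10.27, 11.04 and 10.72 in treated SP, a difference of 0.092 ± 0.063 (adjusted p 0.520). Leaving out anti-EpCAM pair 2 gave 0.034, leaving out both of the other antibody pairs gave 0.21, and the mean of its probe sets gave 0.18. EDEM1, which takes misfolded glycoproteins to degradation, read 9.11, 9.07 and 9.52 in untreated non-SP, 9.14, 9.10 and 9.54 in untreated SP, 8.96, 9.47 and 9.59 in treated non-SP and 8.88, 9.53 and 9.55 in treated SP and differed by 0.0062 ± 0.050 (adjusted p 0.969). SP was above non-SP in 4 of 6 pairs for each of these genes.

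Averaged over the genes of a role within each pair, the ATF4 arm differed by 0.035 (SD 0.038, n = 6 pairs) and the chaperones by 0.00029 (SD 0.030). The arm was above the chaperones in 5 of 6 pairs, by a mean of 0.034 (SD 0.041), so the gap was smaller than its spread over pairs. Its size depended on the probe set rule: with the mean of all probe sets of a gene, the arm averaged 0.065 and the chaperones -0.0021. The sensors averaged 0.088 (SD 0.074), with untreated pair 1 highest at 0.20, the pair in which ERN1 stood out. The degradation genes averaged 0.057 (SD 0.068). All 38 members averaged 0.030 (SD 0.031), against 0.0014 (SD 0.031) over all genes tested. In 5 of 6 pairs the member mean was above 0, and in anti-EpCAM pair 1 it was -0.026. Because the members were chosen with results of these data known, these means carry no test.

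**Figure D3:**
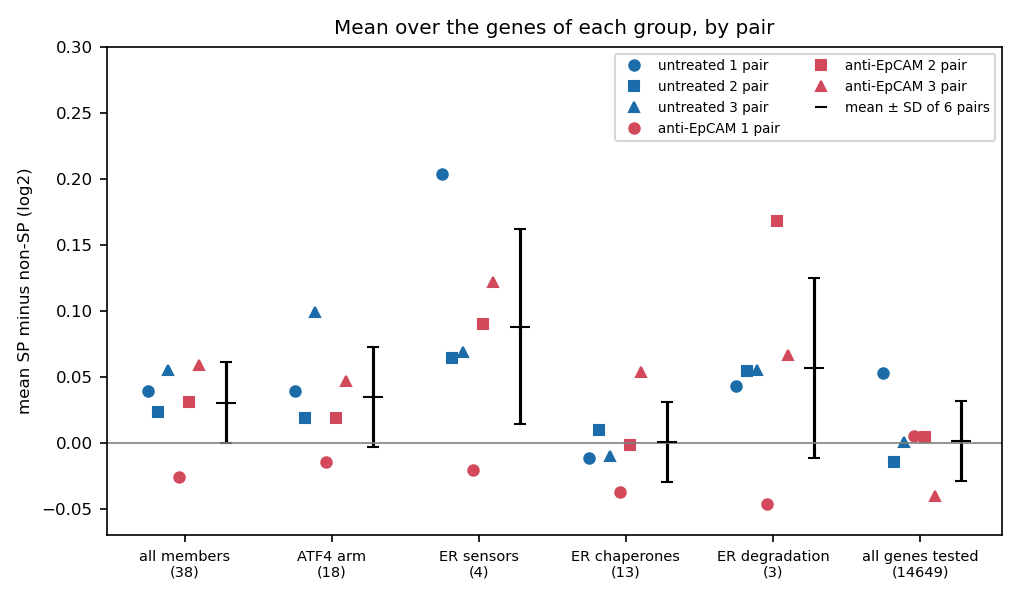
Mean SP minus non-SP (log2) over the genes of each role, for each of the 6 pairs (symbols), with the mean and SD over pairs as black bars; the number of genes is given in parentheses. The chaperones straddle 0, the ATF4 arm has 5 of 6 pairs above it, and the bar of all genes tested is as wide as that of all members.

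Taken within each treatment, 0 members passed either. In untreated cells 0 of 38 members passed, where 0.0956% of all genes did, and the smallest adjusted p was 0.338 (ERN1). At an unadjusted p under 0.05, 4 members were higher in SP (TRIB3, PPP1R15A, SLC3A2 and ERN1; background 5.03%) and 2 lower (SESN2 and VLDLR; background 3.85%). In treated cells 0 of 38 passed, where 0.246% of genes did, with 0 members higher (background 4.23%) and 2 lower at the unadjusted level (VLDLR and HYOU1; background 6.26%). The interaction of fraction and antibody was called for 0 members and 0% of genes, and SESN2 was the 1 member with an unadjusted p under 0.05, against 1.7% of genes.

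The second question was whether the antibody moved the stress response. No member was called: 0 of 38 passed over both fractions, in non-SP or in SP, and 0% of all genes did. At an unadjusted p under 0.05 there were 0 members over both fractions (1.46% of genes), 1 in non-SP (SESN2; 1.65% of genes) and 0 in SP (1.3% of genes). SESN2 in non-SP differed by -0.41 ± 0.15 (unadjusted p 0.0295; adjusted p 1.000). These comparisons are less precise than those within pairs. They set 3 pair means against 3, and differences in level between pairs do not cancel. Over both fractions the 95% interval, again from the moderated SE, lay within 0.5 on the log2 scale for 27 of 38 members. It lay within 1 for 34. For SP minus non-SP in untreated or in treated cells, also from 3 pairs each, it lay within 0.5 for 36 and 37 of 38 members.

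The upstream regulators ATF4 and EIF2AK3 had the smallest spread. The pair means of ATF4 (SP and non-SP averaged, quantile normalized) were 12.74, 12.68 and 12.77 untreated and 12.68, 12.74 and 12.78 with antibody, a difference of 0.0078 ± 0.097 (95% interval -0.22 to 0.24). EIF2AK3 was at 10.07, 10.09 and 10.10 untreated and 10.02, 9.99 and 9.997 with antibody. It was the 1 member whose groups did not overlap, lower with antibody (2.63% of members against 1.71% of all genes), and 0 were higher without overlap (against 2.74%). Its difference of -0.085 ± 0.093 had an unadjusted p of 0.391. On the deposited values the difference was -0.0087 and the groups overlapped. There, both arrays of anti-EpCAM pair 2 (10.17 and 10.21) lay above both of untreated pair 1 (9.91 and 9.98). DDIT3 differed by -0.17 ± 0.18, TRIB3 by -0.064 ± 0.13 and HSPA5 by 0.019 ± 0.13.

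ASNS was at 11.74, 11.49 and 11.64 untreated and 11.52, 11.55 and 11.36 with antibody, a difference of -0.15 ± 0.12. SESN2 was at 8.48, 8.46 and 8.09 and 8.22, 8.13 and 8.14, a difference of -0.18 ± 0.13. Both sets of 3 overlapped. The degradation genes differed by 0.010 ± 0.16 (HERPUD1), 0.019 ± 0.13 (SEL1L) and 0.016 ± 0.13 (EDEM1).

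Some of the larger antibody estimates belonged to members whose pairs differed widely within a treatment. HSP90B1 was at 10.77, 10.19 and 10.16 untreated and 10.62, 10.05 and 8.57 with antibody, a difference of -0.63 ± 0.49 that came from anti-EpCAM pair 3. PPP1R15A was at 8.50, 8.84 and 9.60 and 8.77, 9.33 and 9.93, a difference of 0.36 ± 0.36. XBP1 was at 9.15, 9.64 and 10.96 and 9.24, 10.65 and 10.76, a difference of 0.30 ± 0.55. HYOU1 was at 9.12, 9.37 and 9.32 and 9.14, 9.22 and 10.05, a difference of 0.20 ± 0.24, with anti-EpCAM pair 3 alone above the untreated values. None of these 4 had an unadjusted p under 0.05 in this comparison. PPP1R15A did when the label's replicate number was taken as a block across treatments, without passing adjustment.

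As groups, the members differed by 0.0028, the ATF4 arm by -0.0092, the chaperones by -0.013, the sensors by 0.099 and the degradation genes by 0.015. The SD of the 3 pair means was 0.094 untreated and 0.087 with antibody for all members. The scale matters here: the median of all genes was 0.091 on the deposited values and 0.012 after quantile normalization, and the median over members was 0.063 and 0.0067.

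**Figure D4:**
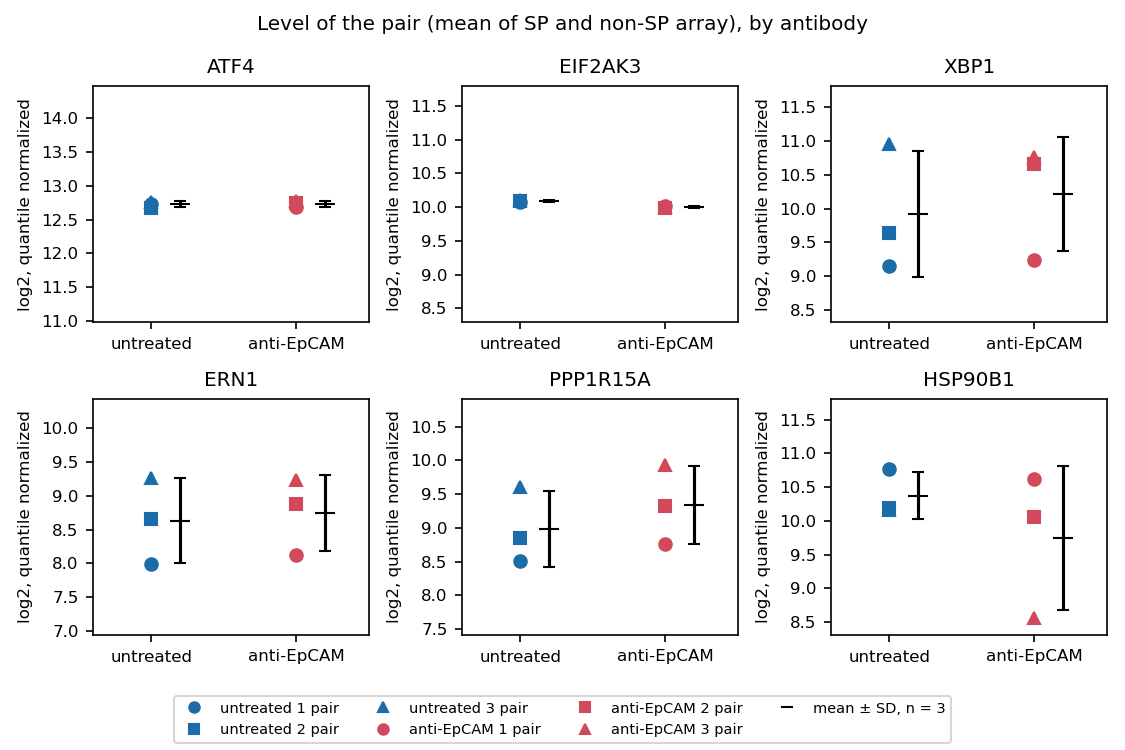
Level of each pair (log2, mean of its SP and non-SP array after quantile normalization) without and with antibody for 6 members; bars are the mean and SD of 3 pairs, and every panel spans the same number of log2 units. ATF4 and EIF2AK3 form tight clusters, while XBP1, ERN1 and PPP1R15A spread by more than 1 log2 unit within each treatment and HSP90B1 has a single low pair, anti-EpCAM 3.

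For several members the spread between pairs was wider than the difference by fraction or by antibody. XBP1 had an SD of 0.82 over the 6 pair means, more than 99.3% of all genes. It was low in untreated pairs 1 and 2 and in anti-EpCAM pair 1. HSP90B1 followed with 0.78 (99.2%), PPP1R15A with 0.55 (97.4%) and ERN1 with 0.54 (97.3%). ERN1 was at 7.99, 8.65 and 9.26 untreated and 8.12, 8.88 and 9.23 with antibody. ERN1, XBP1 and PPP1R15A each had their lowest pair mean in untreated pair 1, and their lowest treated one in anti-EpCAM pair 1.

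NUPR1, a stress-induced chromatin protein, had an SD of 0.41 (93.5%) with the opposite order, 8.997, 8.55 and 8.11 untreated and 8.99, 8.13 and 8.28 with antibody. At the other end stood ATF4 with an SD of 0.042, more than only 1.01% of genes, EIF2AK3 with 0.048 (1.67%) and CANX with 0.054 (2.65%). ATF4 nevertheless differed within pairs with an SD of 0.21. The median SD over members was 0.14, against 0.17 over all genes, and 15 of 38 members lay above that. The SD of the pair means exceeded the SD of the SP minus non-SP differences in 27 of 38 members, and in 63.3% of all genes. The first is of a mean on quantile-normalized values and the second of a difference on deposited values. An equal SD therefore does not mark the absence of a pair effect. The deposited array medians were also lowest in the 3 pairs where XBP1 was low, at 5.58 to 5.84 against 6.14 to 6.24 in the others; their part in this spread was not tested.

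**Figure D5:**
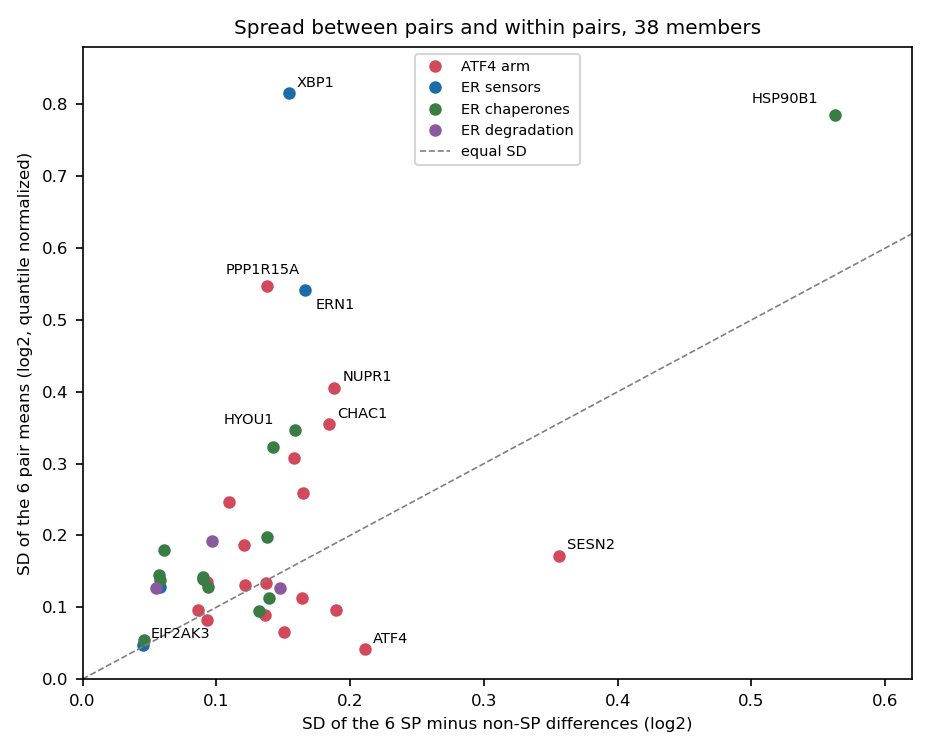
SD of the 6 SP minus non-SP differences (x axis, log2, deposited values) against SD of the 6 pair means (y axis, log2, quantile normalized) for the 38 members, coloured by role. The dashed line marks equal SD and is a guide only, since a difference and a mean are unlike measures. XBP1, PPP1R15A and ERN1 stand high above the line, HSP90B1 is far out on both axes, and ATF4 and SESN2 lie well below it.

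The rest of the pathway was read from 7 further lists of genes that are not members. In SP against non-SP over both treatments, 1 of 12 genes for eIF2, its kinases and eIF2B rose, as did 1 of 23 other ATF4 targets. In the same comparison 1 of 16 other degradation genes rose, and 1 of 12 cytosolic heat shock genes fell. Of all genes tested, 1.02% were called higher and 1.45% lower, so single genes are no result about the lists. Of 27 other ER folding and import genes, 11 other sensors and factors and 13 other tRNA synthetases, 0 passed, and in the antibody comparisons 0 genes of any of the 7 lists did. With the 12 arrays treated as independent, 0 genes were called in all, these 4 included.

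PPP1R15B, the constitutive partner of the eIF2 phosphatase, rose by 0.29 ± 0.063 (1.22-fold; adjusted p 0.0435). It read 10.86, 10.95 and 11.41 in untreated non-SP and 11.19, 11.22 and 11.73 in untreated SP, and with antibody 11.04, 11.28 and 11.20 in non-SP against 11.07, 11.56 and 11.68 in SP. SP was higher in 6 of 6 pairs, least in anti-EpCAM pair 1. The call was lost without any single pair other than that one (adjusted p 0.0901 to 0.168), with the mean of a gene's probe sets (0.0506) and with no filter (0.0613).

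DDIT4, an mTORC1 inhibitor induced by ATF4 and by other stresses, rose by 0.29 ± 0.056 (1.22-fold; adjusted p 0.0274). It read 13.09, 13.02 and 13.19 in untreated non-SP, 13.46, 13.24 and 13.54 in untreated SP, 13.14, 13.36 and 13.14 in treated non-SP and 13.52, 13.47 and 13.45 in treated SP. Every untreated SP array lay above every untreated non-SP array, as did every treated SP array above every treated non-SP array. Without any single pair the adjusted p was 0.0529 to 0.124.

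EDEM2, a mannosidase of ER degradation, rose by 0.25 ± 0.048 (1.19-fold; adjusted p 0.0274), with pair differences of 0.27, 0.26 and 0.26 and 0.21, 0.27 and 0.23. Its level otherwise varied by more than 1 log2 unit between pairs, 8.75, 9.04 and 10.08 in untreated and 9.32, 9.86 and 9.94 in treated non-SP, 9.02, 9.30 and 10.34 in untreated and 9.52, 10.12 and 10.17 in treated SP. The adjusted p stayed under 0.05 without anti-EpCAM pair 1 (0.0398) and was 0.0552 to 0.124 without any other single pair.

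CRYAB, a small heat shock protein of the cytosol, fell by 0.51 ± 0.11 on the log2 scale (1.42-fold; adjusted p 0.0412). It read 5.99, 6.68 and 8.9997 in untreated non-SP and 5.94, 6.33 and 8.16 in untreated SP, and with antibody 5.62, 7.86 and 9.06 in non-SP against 5.42, 7.17 and 8.15 in SP. SP was lower in 6 of 6 pairs, and by least in untreated pair 1 and anti-EpCAM pair 1, where its level was lowest. The call was kept without untreated pair 1 (0.0361) or anti-EpCAM pair 1 (0.0240) and lost without any other single pair (0.0767 to 0.172), and with the mean of a gene's probe sets (0.0533).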

How the data were processed

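The deposited values are log2 expression values per probe set that the authors made with RMA, per the submitters' processing notes; its version is not given in the sources used here. The 62 control probe sets were left out. Probe sets with a mean over the 12 arrays above the 40th percentile (5.39) were kept, and each gene was represented by its probe set of highest mean, among those naming 1 gene. Of 21 members with more than 1 kept probe set, 10 had an opposite sign in another. Probe sets that list HSP90B1 or PHGDH with other genes were not used. Tests were limma 3.58.1 in R 4.3.3, two-sided, with Benjamini-Hochberg adjustment over all 14649 genes and a threshold of 0.05; errors are SE unless named. SP minus non-SP used within-pair differences of deposited values with treatment as covariate, and antibody contrasts used pair means or the arrays of a fraction after quantile normalization. The labels do not state the pairing. Arrays sharing treatment and number had deviations from their group means that correlated with r of 0.62 to 0.89. Other arrays of different groups reached an r of 0.73, so r alone does not set the pairs apart. The sorted values of a pair differed by a mean of 0.0093 to 0.022, against 0.046 or more for other array pairs. A shared sort and joint processing cannot be told apart. The labels call the replicates biological without describing separate cultures, so p-values measure the spread between these samples, moderated over genes. The number of arrays limits the precision.

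The members, roles and lists were chosen with earlier results of these data known. Named with values in every array were any called member, 8 fixed members (ATF4, DDIT3, TRIB3, ASNS, PPP1R15A, XBP1, HSPA5 and HERPUD1), and per role the 3 of smallest p by fraction and 2 by antibody. Other genes were named when they passed. Older list symbols were updated through RefSeq synonyms. The fits were tested on simulated data. Alternatives changed the normalization, filter, probe set rule, pairing, control-ratio covariate and pairs included.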

Additional observations from a re-analysis of the deposited data

Results flagged for a closer look

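Each of the 38 members was checked for a pair whose SP minus non-SP difference stood far from the other 5, as a gap whose share of the whole range was above Dixon's 95% critical value. This picked out 4 of 38 members (10.5%), against 765 of the 14649 genes tested (5.22%); chance alone flags about 1 in 20 such sets of 6.

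ERN1 stood out in untreated pair 1, with a difference of 0.57 against 0.15 to 0.19 in the other pairs. PHGDH, the first enzyme of serine synthesis, stood out in untreated pair 3, at 0.31 against -0.12 to -0.019, so that pair had the only positive difference. SLC3A2 in anti-EpCAM pair 1 was at -0.12 against 0.16 to 0.32. SDF2L1, an ER chaperone cofactor, was at -0.32 in anti-EpCAM pair 2 against -0.066 to 0.031.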

How the results depend on the processing

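The count of members called stayed at 0 in all 7 comparisons under every alternative except a stricter filter on dim probe sets, where 1 member (VLDLR) passed for SP against non-SP over both treatments. On the values as deposited the mean antibody difference was 0.050 over the ER chaperones, 0.054 over the ATF4 arm and 0.067 over all members, against -0.013, -0.0092 and 0.0028 after quantile normalization. The median of all genes was 0.091 on the deposited values. The cause of the VLDLR call was not tested.

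Some uncalled estimates changed sign, among them the antibody estimates of XBP1 (0.30) and HYOU1 (0.20). For SP minus non-SP, DDIT3 was -0.0029 and EDEM1 -0.0030 after quantile normalization, and DDIT3 was -0.021 without anti-EpCAM pairs 1 and 3. For the antibody, TRIB3 was 0.00035 on deposited values, and with the mean of all probe sets TRIB3 was 0.089, HSPA5 -0.00017 and SEL1L -0.035. Leaving out 1 pair at a time gave SP minus non-SP of -0.046 to 0.099 for ATF4, -0.024 to 0.023 for DDIT3, -0.0043 to 0.029 for ATF6 and -0.015 to 0.021 for EDEM1. It gave antibody differences of -0.017 to 0.033 for ATF4, -0.14 to 0.026 for TRIB3, -0.079 to 0.83 for XBP1, -0.068 to 0.10 for HSPA5, -0.12 to 0.16 for HERPUD1, -0.089 to 0.36 for HYOU1, -0.052 to 0.10 for SEL1L and -0.074 to 0.11 for EDEM1.

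With the label's replicate number as a replicate block, the antibody contrasts called 0 members, as without it. At an unadjusted p under 0.05 the block gave 1 member over both fractions, 3 in non-SP and 1 in SP, against 0, 1 and 0 without it. PPP1R15A had the smallest p in each of these contrasts. The share of all genes at that level with the block is not given here. For numbers 1, 2 and 3, untreated and treated non-SP arrays correlated at 0.73, -0.11 and 0.60, and the SP arrays at 0.71, -0.18 and 0.64, so the numbers were not taken as pairs across treatments. Without the replicate block of SP and non-SP, on 12 independent arrays, 0 members were called in the fraction contrasts.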

Other observations

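The cytosolic tRNA synthetases are enzymes that charge tRNAs and include several ATF4 targets. Besides CARS1 and WARS1, 13 of the 18 genes on the list were tested. The other listed genes had no probe set of their own under the symbol used, so the counts here do not cover the whole list. For SP minus non-SP over both treatments, 12 of 13 estimates were above 0 with a median of 0.086, where 52.4% of all genes were above 0 with a median of 0.0056. FARSA, FARSB, RARS1 and VARS1 had an unadjusted p under 0.05, 4 of 13 where 8.64% of all genes were higher at that level, and 0 passed after adjustment. With antibody over both fractions, 2 of 13 estimates were above 0 with a median of -0.051, where 54.2% of all genes were above 0 with a median of 0.012, and 0 had an unadjusted p under 0.05.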
